A study of Mus musculus with 10 samples.

Results

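The 10 genes described here are markers of alternatively activated and scavenging macrophages: the endocytic and scavenger receptors Mrc1, Stab1, Msr1, Cd163 and Folr2, the cytokine receptor chain Il4ra, the cytokines Tgfb1 and Il10, and the secreted products Retnla and Chil3. They were taken by symbol from the 55815 genes whose counts could be read in every library, and all 10 were found. In the fit over all libraries 8 of them were tested, none was left out as low, and Retnla and Chil3 were below detection, defined as at most 3 counts in every library.

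Polyadenylated RNA was sequenced from 10 libraries of iKCs, a mouse cell line that the labels name without expanding the abbreviation; the series title concerns macrophages of liver metastases. Cells carried 1 of 4 vectors, called LV in the labels, and were sorted alive on the vector's fluorescent marker mOrange. Overexpression of miR-342-3p (3 libraries) was set beside a mutated form of this microRNA as control (2 libraries), and a sponge against it (3 libraries) beside a scramble control sponge (2 libraries). A sponge is a transcript whose binding sites sequester a microRNA. All groups carried a vector and passed the same sort, so no untransduced cells were compared, and all are 1 cell line in culture. The labels call the libraries biological replicates without saying how the cultures were separated, so p-values reflect only how far these libraries vary, which may be technical. The 2 scramble libraries are called A and B, because the group of each was certain and its replicate number was not.

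Macrophages exposed to the cytokines IL-4 and IL-13 signal through the receptor chain Il4ra and the transcription factor Stat6, and in mice this program is recognised by Mrc1, Retnla, Chil3 and Arg1. Scavenger receptors take up modified proteins, lipids and debris, and several of them, such as Stab1, Cd163 and Folr2, mark tissue-resident macrophages. Il10 and Tgfb1 are cytokines that restrain inflammation. A microRNA pairs through its seed, bases 2 to 8, with sites in the 3′ UTR of messenger RNAs and lowers their stability or translation.

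The sequences below show the microRNA that was overexpressed or sequestered and sites for it. They are the only site in the 10 genes, and those of Cd36 and Tgfbi, which were called for overexpression against the mutated control. Ccl24, also called there, held a 7mer-A1, a site type defined below, and that site is not printed. For Cd36 the overexpression libraries did not differ from scramble past the threshold, as described further on. The mature microRNA is from RefSeq (GRCm38.p6, chr12:108658680-108658702, plus strand), with the seed in capitals. Sites are from the longest annotated 3′ UTR in GENCODE vM21 (GRCm38), with the bases that match the seed in capitals: chr8:39604758-39604783 (minus strand) for Msr1, chr5:17782180-17782207 (minus strand) for Cd36 and chr13:56639299-56639325 (plus strand) for Tgfbi.
mmu-miR-342-3p: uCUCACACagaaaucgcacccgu
Msr1 6mer site: gatgcctcttTGTGAGtaaacagaac
Cd36 8mer site: tatagcagcaGTGTGAGActgaaggcaa
Tgfbi 7mer-m8 site: gattccctgaGTGTGAGggacccatgg

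An 8mer is GTGTGAGA, a 7mer-m8 is GTGTGAG without the final A, a 7mer-A1 is TGTGAGA and a 6mer is TGTGAG, all searched on the transcript's own strand. None of the 10 genes held an 8mer, a 7mer-m8 or a 7mer-A1. Msr1 held the 6mer at base 1199 of a 3′ UTR of 2518 bases. Among 11916 tested genes with an annotated 3′ UTR, 15.2% held an 8mer or 7mer-m8. The 3′ UTRs of the 10 genes ran from 134 bases in Stab1 and 135 in Tgfb1 to the 2518 of Msr1, against a median of 1130 over those tested genes. A match is a run of letters and not a measured binding site.

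The locus of the microRNA itself checks the vector labels in part. Mir342 had 487, 483 and 242 counts with overexpression, 136 and 133 in the mutated control and 0 in every sponge and scramble library. The mature microRNA was not measured in these libraries, so the sponge could not be checked.

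The cells carried macrophage RNA. All 10 macrophage markers were tested, led by Csf1r at a mean of 2082 CPM (counts per library scaled to a common total of 1e6, with TMM factors), and their summed level ran from 5441 to 6517 CPM over the libraries. Of 12 Kupffer cell markers 9 were tested, led by C1qb, while the defining markers Clec4f and Timd4 were at 0 counts in every library and Vsig4 reached at most 4 counts. The summed Kupffer list stood at 3670 to 4453 CPM with overexpression and at 3139 to 3362 CPM in the mutated control. It stood at 3348 to 4045 CPM with the sponge and 3460 to 3770 CPM with scramble. Nearly all of this sum came from C1qb, C1qc and C1qa, the lowest of which, C1qa, was at 851 to 1318.5 CPM. The next gene, Spic, was at 9.62 to 14.4 CPM, so the sum describes the C1q genes and not the list. Its part in the results was not tested. Mrc1 and Stab1 are also known from liver sinusoidal endothelial cells. Of that list of 10 genes 7 were tested, and the list summed to 228 to 254 CPM, mostly from Fcgr2b. Kdr stood at 17.7 to 27.1 CPM and Stab2 at 1.59 to 2.68 CPM, while Clec4g was at 0 counts in every library. Of 8 hepatocyte genes 6 had at most 3 counts everywhere and Apoa1 at most 4, while Ass1 was tested and stood at 39.7 to 57.3 CPM. Library totals ran from 25712732 counts in overexpression replicate 3 to 59259988 in overexpression replicate 1, and overexpression replicate 1 and sponge replicate 3 stood apart from the other libraries of their groups (chi-square per gene of 30.9 and 40.2 for the first, and 22.0 and 32.9 for the second, against 8.0 and 7.29 between the remaining 2). In such bulk samples, fewer cells of a type and less RNA per cell cannot be told apart.

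Among the 10 genes the level per length differed widely. Mrc1, the mannose receptor, was at a mean of 194.5 CPM per kilobase of exon, in the 99.0th percentile of tested genes. Tgfb1 followed at 84.3, Msr1 at 23.5, Il4ra at 18.1 and Stab1 at 8.04 CPM per kilobase. Il10 at 2.13, Folr2 at 0.453 and Cd163 at 0.106 CPM per kilobase stood in the 38.5th, 20.3rd and 5.92nd percentiles. The ranges of neighbours in this order did not overlap over the 10 libraries. The level of Folr2 was scaled by all its exonic bases, 975 of which overlap another gene, so its place is less certain.

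**Figure D1:**
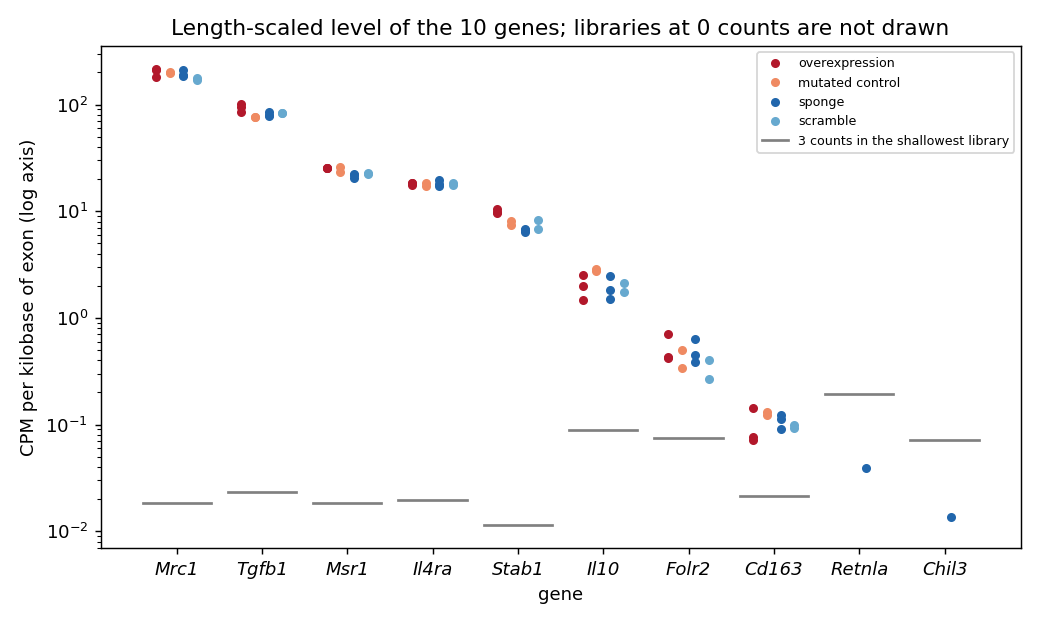
Level of each of the 10 genes in CPM per kilobase of exon (log axis), 1 point per library, coloured by group. Grey bars show 3 counts in the shallowest library; Retnla and Chil3 each had 1 count in 1 library, below that bar, and their other libraries at 0 are not drawn.

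Retnla, a secreted resistin-like protein, and Chil3, a chitinase-like protein, are the classical mouse products of IL-4 signalling. Retnla (chr16:48662914-48664824 in the deposited coordinates, GENCODE vM30) had 0 counts in 9 libraries and 1 count in sponge replicate 3. Chil3 (chr3:106054870-106074880) had 0 counts in 9 libraries and 1 count in sponge replicate 1. A limit of 3 counts corresponds to 0.0506 CPM in the deepest library and 0.117 CPM in the shallowest, counting error only. Their relatives Chil4 and Retnlb had no count and Retnlg had 1. Reads shared between near-identical copies could be lost in counting, so the limits apply to reads that the authors could assign. Cd209a, another gene listed with the same program, had no count. Arg1, the arginase of that program, was tested and stood between 0.187 and 0.600 CPM over the 10 libraries.

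Mrc1 (chr2:14234203-14336868) takes up mannose-bearing glycoproteins. It stood at 1166, 1380.1 and 1350.3 CPM in overexpression replicates 1 to 3, at 1271 and 1298 in the mutated control, at 1333.9, 1198 and 1183 with the sponge and at 1094 and 1119 with scramble. Both scramble libraries were the lowest, and the other 3 groups overlapped. The group means were 1299 ± 116 (SD, n = 3), 1285 ± 19.1 (n = 2), 1238 ± 83.1 (n = 3) and 1107 ± 17.7 CPM (n = 2). Against the mutated control the log2 fold change with overexpression was 0.02 (SE 0.084, adjusted p = 0.928). With the sponge it was 0.16 against scramble (SE 0.084, adjusted p = 1).

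Stab1 (chr14:30860970-30890598), or stabilin-1, clears modified lipoproteins and extracellular matrix products. Overexpression libraries stood at 100.3, 108 and 98.6 CPM, mutated control libraries at 76.5 and 83.3, sponge libraries at 69.7, 68.7 and 66.2, and scramble libraries A and B at 70.8 and 85.8. All overexpression libraries were above every other library, all sponge libraries were below every other, and the controls lay between and overlapped each other. Group means were 102 ± 4.81 (SD, n = 3), 79.9 ± 4.83 (n = 2), 68.2 ± 1.82 (n = 3) and 78.3 ± 10.6 CPM (n = 2). Against the mutated control Stab1 was 1.28-fold higher with overexpression (log2 0.36, SE 0.085, 95% interval 0.17 to 0.54), and the adjusted p of 0.0953 missed the threshold of 0.05. The interval is not adjusted for the number of genes. Without overexpression replicate 1 the difference was 0.37, and leaving out each library in turn it ran from 0.30 to 0.43.

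With the sponge Stab1 differed from scramble by −0.20 (log2, SE 0.084, adjusted p = 1), by −0.18 without sponge replicate 3 and by −0.05 without scramble library B. Leaving out each library in turn moved this sponge difference between −0.33 and −0.05. The overexpression effect minus the sponge effect was 0.56 (SE 0.12, adjusted p = 0.273). DESeq2 gave adjusted p = 0.0117 for overexpression against the mutated control and 0.0167 for the difference of the effects. Stab1 shares 112 exonic bases with Nt5dc2 on the other strand, and strand was not used in counting, so reads in that stretch cannot be told apart.

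Msr1 (chr8:40034726-40095714), scavenger receptor A, binds modified low-density lipoprotein. Levels were 162, 161 and 161 CPM with overexpression, 148 and 166 in the mutated control, 141, 129 and 138 with the sponge and 141 and 146 with scramble. Overexpression and mutated control overlapped, as did sponge and scramble. The log2 fold change was 0.04 (SE 0.066, adjusted p = 0.786) with overexpression against the mutated control and −0.08 (SE 0.066, adjusted p = 1) with the sponge against scramble. Against scramble, overexpression differed by 0.17 (SE 0.067, adjusted p = 0.327).

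Cd163, the haemoglobin scavenger receptor (chr6:124281615-124307486), and Folr2, a folate receptor of tissue macrophages (chr7:101489195-101506401), were near the lower end of what could be tested. Cd163 had 17 to 34 counts per library and stood at 0.388, 0.420 and 0.778 CPM with overexpression, 0.714 and 0.677 in the mutated control, 0.622, 0.670 and 0.492 with the sponge and 0.505 and 0.535 with scramble. Overexpression replicate 3, the shallowest library, was the highest of all and the other overexpression libraries were the lowest. The log2 fold change against the mutated control was −0.50 (SE 0.30, 95% interval −1.15 to 0.15, adjusted p = 0.378). It was −0.30 without overexpression replicate 1 and −0.78 without overexpression replicate 3, neither past the threshold.

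Folr2 had 14 to 42 counts per library. It stood at 0.658, 0.654 and 1.09 CPM with overexpression, 0.525 and 0.774 in the mutated control, 0.689, 0.591 and 0.984 with the sponge and 0.416 and 0.622 with scramble, so the overexpression libraries overlapped with the mutated control and the sponge libraries with scramble. Its interval for overexpression against the mutated control ran from −0.48 to 0.97 (log2) with 2 and 3 libraries. Of its 1546 exonic bases, 975 overlap Gm10602 on the other strand, which had 662 counts in all against 305 for Folr2, and those reads cannot be told apart.

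Il4ra (chr7:125151292-125178646) is the receptor chain shared by IL-4 and IL-13. It had the smallest spread of the 8 tested genes, with a coefficient of variation of 3.68% over all 10 libraries. Levels were 111, 107 and 110.1 CPM with overexpression, 104 and 111 in the mutated control, 104, 117 and 108 with the sponge and 111 and 105 with scramble. All 4 groups overlapped. The 95% interval of the log2 fold change was −0.12 to 0.18 for overexpression against the mutated control and −0.13 to 0.17 for the sponge against scramble.

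The genes around Il4ra were measured too, and the following were chosen for their role after their values had been seen. Il13ra1, its partner chain for IL-13, was at 5.62, 5.21 and 6.53 CPM with overexpression and at 8.30 and 9.51 in the mutated control (log2 −0.63, SE 0.12, adjusted p = 0.0542). The scramble libraries were at 6.42 and 6.56 CPM for Il13ra1. Il2rg, the common gamma chain, differed by −0.02 (adjusted p = 0.887) and Stat6, the downstream transcription factor, by −0.06 (adjusted p = 0.541) in the same comparison.

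Tgfb1 (chr7:25386427-25404502) encodes transforming growth factor beta 1. It stood at 508, 477 and 430.4 CPM with overexpression, 387 and 383 in the mutated control, 399, 395 and 431 with the sponge and 421 and 417 with scramble. Every overexpression library was above the mutated control, the mutated control held the lowest libraries of all, and the sponge libraries spanned those of scramble. Group means were 472 ± 39.3 (SD, n = 3), 385 ± 2.52 (n = 2), 409 ± 19.4 (n = 3) and 419 ± 3.05 CPM (n = 2). Against the mutated control Tgfb1 was 1.23-fold higher (log2 0.29, SE 0.075, adjusted p = 0.112), and without overexpression replicate 3 the difference was 0.37 with adjusted p = 0.0360; without overexpression replicate 1 it was 0.24. Against scramble the difference was 0.17 (SE 0.075, adjusted p = 0.361). DESeq2 gave adjusted p = 0.0178 for the first of these.

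Il10 (chr1:130947582-130952711) had 83 to 178 counts per library. It stood at 2.62, 1.94 and 3.31 CPM with overexpression, 3.74 and 3.63 in the mutated control, 2.40, 3.23 and 1.97 with the sponge and 2.79 and 2.30 with scramble. The mutated control held the highest libraries, and the other 3 groups overlapped. Against the mutated control the overexpression difference was −0.52 (log2, SE 0.23, adjusted p = 0.261), and −0.33 without overexpression replicate 2, while against scramble it was 0.03 (SE 0.24, adjusted p = 0.968). The mutated control itself differed from scramble by 0.55 (SE 0.25, adjusted p = 0.772).

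**Figure D2:**
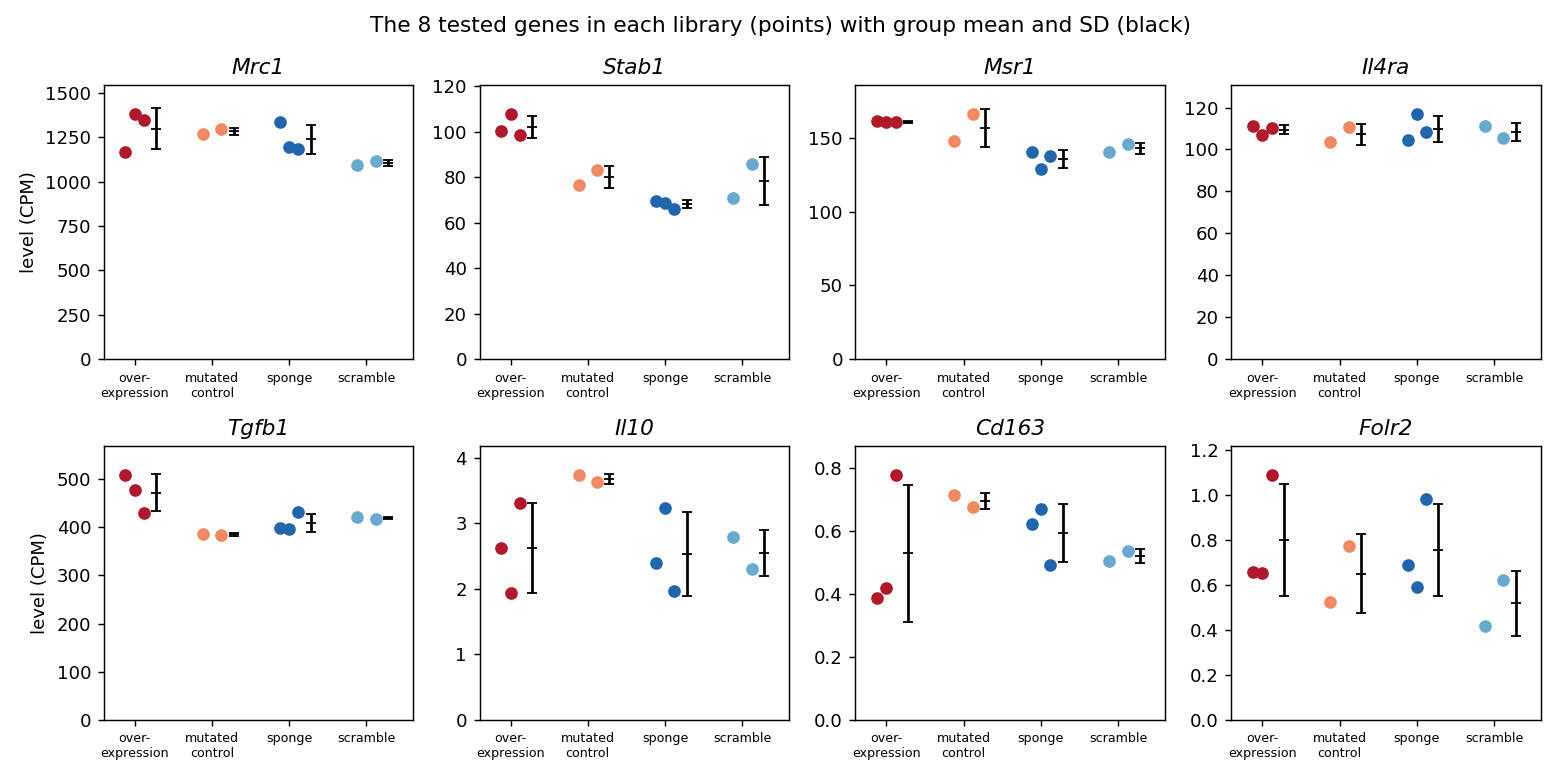
Level (CPM) of the 8 tested genes in each library, by group, with the group mean and SD in black (n = 3, 2, 3 and 2). For Stab1 the 3 overexpression libraries lie above all others and the 3 sponge libraries below all others, while Il4ra is level across the groups.

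By edgeR's quasi-likelihood test with adjustment over 15767 genes, 0 of the 8 tested genes passed for overexpression against the mutated control, where 0.539% of all genes passed. At an unadjusted p under 0.05 there were 3 (Stab1, Tgfb1 and Il10), against 18.2% of all genes. DESeq2 called Stab1 and Tgfb1, against 3.84% of the genes it gave an adjusted p, and limma-voom called none, against 0.666%. In the same comparison the groups did not overlap for those same 3 genes, against 38.2% of all genes.

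For the sponge against scramble edgeR called 0 of the 8 and 0% of all genes. Stab1 had an unadjusted p under 0.05, as did 2.33% of all genes. DESeq2 called none, against 0.00634%, and limma-voom none, against 0%. Groups did not overlap for Stab1 and Mrc1, against 15.2% of all genes.

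For the mutated control against scramble edgeR called 0 of the 8, against 0.0254% of all genes. Mrc1 had an unadjusted p under 0.05, against 6.47%. DESeq2 called none, against 0.783%, and limma-voom none, against 0.0254%. Mrc1, Cd163, Msr1, Tgfb1 and Il10 did not overlap between these pairs of libraries, against 48.4% of all genes.

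Overexpression against scramble gave 0 of the 8 by edgeR, against 0.0444% of all genes. Mrc1, Stab1, Msr1 and Tgfb1 had an unadjusted p under 0.05, against 13.4%. DESeq2 called Stab1, against 1.8%, and limma-voom none, against 0.0444%. Groups did not overlap for these 4 and Folr2, against 31% of all genes. The comparisons with overexpression share their overexpression libraries, and those with the mutated control or scramble share those controls. For the difference of the overexpression and sponge effects edgeR called 0 of the 8 and 0% of all genes. Stab1 and Tgfb1 had an unadjusted p under 0.05, against 8.06%. DESeq2 called Stab1, against 0.369%, and limma-voom none, against 0%.

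**Figure D3:**
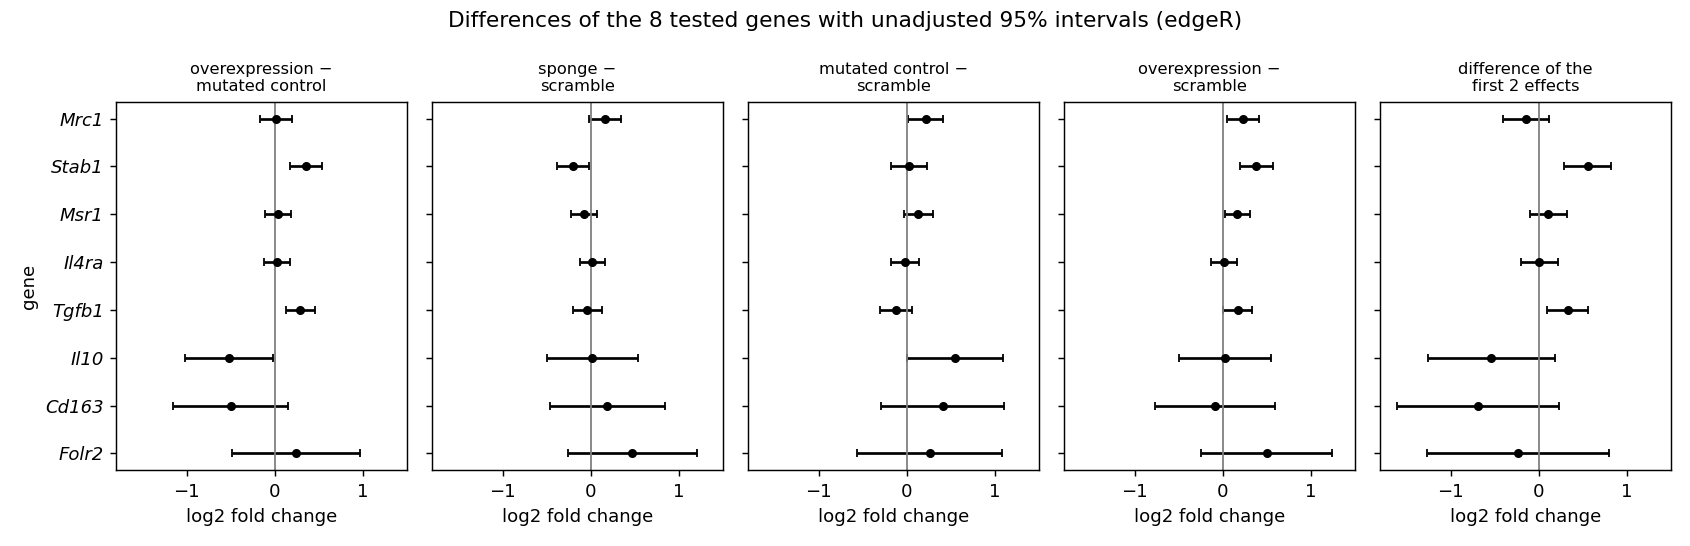
Log2 fold change of the 8 tested genes with its unadjusted 95% interval in the 5 comparisons (edgeR, 10 libraries). The intervals of Cd163, Folr2 and Il10 are the widest, and those of Stab1 and Tgfb1 lie above 0 for overexpression against the mutated control.

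In all, 3 lists of related genes, chosen with earlier results of these data known, were measured beside the 10. Of 35 genes of the IL-4 and IL-13 program 25 were tested, and for overexpression against the mutated control none passed as higher and 2 as lower. In that comparison 0.539% of all genes passed. Tgm2, a transglutaminase, fell by 0.94 on the log2 scale (SE 0.18, adjusted p = 0.0489), from 56.7 and 65.1 CPM in the mutated control to 29.8, 27.7 and 38.3 with overexpression. Scramble libraries were at 52.1 and 52.3 CPM for Tgm2 and sponge libraries at 37.7, 54.2 and 35.1, and overexpression differed from scramble by −0.72 (adjusted p = 0.184). Ccl24, an eosinophil-attracting chemokine, fell by 1.68 (SE 0.32, adjusted p = 0.0489), from 3.53 and 4.55 CPM to 1.47, 0.747 and 1.59. For Ccl24 scramble libraries were at 2.35 and 1.64 CPM and sponge libraries at 1.60, 2.68 and 1.43. The mutated control differed from scramble by 1.04 (adjusted p = 0.549) and overexpression from scramble by −0.64 (adjusted p = 0.443). In this list 5 tested genes were above 0 and 20 below, with a median log2 fold change of −0.18, against −0.01 over all 15767 genes, 48.8% of which were above 0. For the sponge against scramble 6 genes of this list were above 0 and 19 below (median −0.06), and for the mutated control against scramble 15 were above and 10 below (median 0.09). For overexpression against scramble 7 were above and 18 below (median −0.15), where 47.7% of all genes were above 0. For overexpression against the mutated control the median of the 8 tested marker genes was 0.03, with 6 above 0.

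Of 28 scavenger and endocytic receptors 19 were tested, and 1 passed, as lower, against 0.539% of all genes. Cd36, a fatty acid and lipoprotein receptor whose 3′ UTR holds the 8mer shown above, fell by 0.37 on the log2 scale (SE 0.061, adjusted p = 0.0300). It stood at 573, 566 and 609 CPM with overexpression and at 759 and 750.1 in the mutated control. Scramble libraries stood at 559.9 and 569.7 CPM for Cd36 and sponge libraries at 626, 594 and 579, so overexpression differed from scramble by 0.05 (adjusted p = 0.772). Ly75, an endocytic receptor of antigen-presenting cells, differed by −0.61 against the mutated control (SE 0.12, adjusted p = 0.0582) and by −0.17 against scramble (adjusted p = 0.575). The list's median was −0.07.

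Of 35 genes of IL-10 and TGF-beta signalling 30 were tested, and 1 passed, as higher, against 0.539% of all genes. Tgfbi, an extracellular matrix protein induced by TGF-beta, rose by 0.42 (log2, SE 0.076, adjusted p = 0.0489), from 515 and 496 CPM in the mutated control to 693, 691 and 640.5. Scramble libraries were at 552 and 557 CPM for Tgfbi and sponge libraries at 583, 536 and 633, and overexpression differed from scramble by 0.28 (adjusted p = 0.198). Tgfbi carries the 7mer-m8 shown above. Itgav, an integrin chain that activates latent TGF-beta, differed by −0.55 (SE 0.16, adjusted p = 0.139). Itgav stood at 186 and 216 CPM in the mutated control and at 143 and 152 with scramble, and overexpression differed from scramble by −0.11 (adjusted p = 0.796). The list's median was −0.09. Among the receptors, chosen for their role after their values had been seen, Tgfbr1 differed by −0.39 (adjusted p = 0.140), Tgfbr2 by −0.12 (adjusted p = 0.419) and Il10ra by −0.26 (adjusted p = 0.247).

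The 4 calls depended on single libraries. No gene of the lists was called without overexpression replicate 2, without either mutated control library, without sponge replicate 1 or without either scramble library, while 1 was called without overexpression replicate 1 and 7 without overexpression replicate 3 or sponge replicate 3. Leaving out a sponge or scramble library removes no value from this comparison but changes the pooled spread. How many of all genes each of these fits called is not given here. With all libraries edgeR called these 4 of the 74 tested genes of the lists, against 0.539% of all genes. Because the lists were chosen with earlier results known, this share is not read as a result about them. DESeq2 called 10 of the 74, against 3.84% of the genes it gave an adjusted p, and limma-voom 5, against 0.666%.

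For the sponge against scramble edgeR called 0 of these 74 tested genes, with 4 at an unadjusted p under 0.05 (2.33% over all genes), 0 by DESeq2 and 0 by limma-voom. The 2 smallest p in the IL-4 and IL-13 list belonged to Il1rn, the IL-1 receptor antagonist (log2 −0.44, SE 0.10), and Ccl22, a chemokine (−0.49, SE 0.20). Those of the other lists belonged to the scavenger receptors Ssc5d (−0.22) and Colec12 (0.25), the cytokine signalling inhibitor Socs3 (−0.25) and the TGF-beta repressor Tgif1 (−0.14). All had adjusted p = 1. For the mutated control against scramble edgeR called 0 of the 74, with 11 at an unadjusted p under 0.05 (6.47% over all genes), 1 by DESeq2 (Cd36; 0.783% over all genes) and 0 by limma-voom. For overexpression against scramble it called 0, with 16 at an unadjusted p under 0.05 (13.4% over all genes), 3 by DESeq2 (1.8% over all genes) and 0 by limma-voom.

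**Figure D4:**
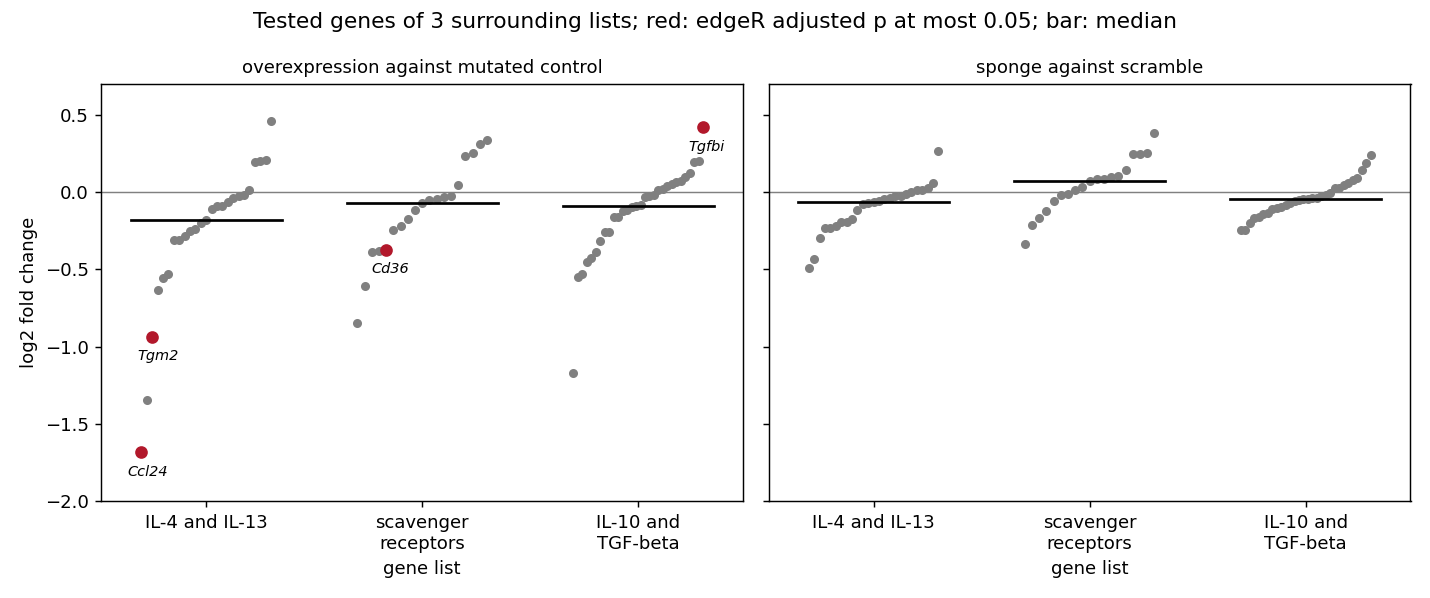
Log2 fold change of each tested gene of the 3 lists (25, 19 and 30 genes), sorted within a list, for overexpression against the mutated control and sponge against scramble; red points passed edgeR's adjusted p of 0.05 and black bars are medians. Tgm2, Ccl24 and Cd36 lie below 0 and Tgfbi above, and no point passed for the sponge.

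Of the 30 tested genes of the IL-10 and TGF-beta list, 12 (40%) held an 8mer or 7mer-m8, against 2 of 25 (8%) in the IL-4 and IL-13 list and 1 of 19 (5.26%) among the scavenger receptors. Over all 11916 tested genes with an annotated 3′ UTR the share was 15.2%. Those counts were not adjusted for the length of the 3′ UTR. Among the 12 genes, the 3′ UTR ran from 601 bases in Tgfbi to 6233 in Smad2, against a median of 1130 over all tested genes.

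As a description, the tested genes whose log2 CPM followed a marker most closely over the 10 libraries were Lgalsl (Pearson r 0.979) and Asb2 (0.961) for Stab1, Smg9 (0.981) and Pip4p2 (0.977) for Tgfb1, and Unc5a (0.938) and Rnf141 (0.919) for Mrc1. For Msr1 they were Cdc25a (0.965) and Cd276 (0.958), and for Il10 Adamts10 (0.959) and Per1 (0.957). For Cd163 they were Gm43029 (0.971) and Gm36501 (0.966), and for Folr2 Angptl2 (0.889) and Gm11560 (0.885). Among the markers themselves Stab1 and Msr1 had r 0.83, Cd163 and Il10 0.74 and Cd163 and Tgfb1 −0.81. The points share libraries and their depth, and the closest of 15767 genes are picked by the search itself.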

How the data were processed

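The deposited table holds whole-number read counts per gene, which the authors made with featureCounts 2.0.1 against GENCODE vM30 by gene name, with strand setting 0 and a minimum overlap of 10 bases, per the file headers. The submitters' processing notes list STAR 2.7.6a, Subread, Trimmomatic and FastQC 0.11.6 without their roles, and GRCm38 as build. The starts of the 10 genes differ from those of GENCODE vM21 on GRCm38, so gene coordinates are given as deposited and no build is assigned to them. The header command names 12 libraries and 10 were analysed.

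Lines hold 15 fields under 16 names, since sponge replicate 3 and scramble library A share 1 field. The digits were divided by negative binomial likelihood (dispersion 0.1, best split at least 100 times likelier than the next), which left out 51 of 55866 genes. In 6 pairs of intact libraries joined on purpose, at least 99.9910% of kept genes and 10 of 10 marker genes were split correctly. These shares include genes with only 1 possible split, which cannot fail. Among kept genes with a mean of at least 10 counts, at most 5 per pair were split wrongly.

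Counts were tested with edgeR 4.0.16 in R 4.3.3 (quasi-likelihood, robust, TMM, filter by group with a minimum count of 10; 15767 genes, 6 residual degrees of freedom, Benjamini-Hochberg, threshold 0.05) in 1 fit of all 10 libraries, checked on simulated counts. CPM were computed here with TMM factors. SE is the log2 fold change over the square root of F. Alternatives were DESeq2 1.42.0, limma-voom (limma 3.58.1), DESeq2 size factors, other filters, fewer groups, a replicate block and leaving out libraries. The rule named the 10 genes, list genes called in 1 of 4 comparisons, the 2 smallest p per list for each vector comparison, and the 2 most similar genes by Pearson r (prior count 2); those for Il4ra are not reported here. The genes and lists were chosen with earlier results of these data known.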

Additional observations from a re-analysis of the deposited data

How the results depend on the processing

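Of 696 recomputed log2 fold changes of the tested marker genes, 655 kept their direction and side of the threshold, 28 changed sign and 13 became called; none of the 194 with an unadjusted p under 0.05 in the reported fit changed sign. With DESeq2, the marker genes called were 2 for overexpression against the mutated control, 1 for overexpression against scramble and 1 for the difference of the effects, and the list genes called were 10, 1 for the mutated control against scramble and 3 for overexpression against scramble. Without a filter on low counts, the marker genes called were 3, 2 and 1 in the same 3 comparisons, and the list genes 17 for overexpression against the mutated control, 1 for the sponge, 7 for the mutated control against scramble and 8 for overexpression against scramble, of 1390 genes called in all in the first. A filter at 30 counts, or only the 2 groups in the fit, left 2 list genes called for overexpression against the mutated control. With only its own groups, the mutated control against scramble called 2 marker genes (Mrc1 and Il10) and 9 list genes. Apart from the 1390, how many of all genes the fits with other filters or fewer groups called is not given here. Their counts are therefore not read as particular to these genes. The cause of the differences between the fits was not tested.

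The 7 same-numbered pairs of libraries correlated at −0.414 to 0.083 and the 14 differently numbered pairs at −0.306 to 0.459, after the group means were removed and without scramble. Same-numbered libraries were thus no more alike, but so few pairs cannot settle whether the samples were paired. With a replicate block by the title or the description number, on 8 libraries without scramble, 0 marker genes and 0 list genes were called for overexpression against the mutated control, and 0 list genes without the block on the same 8. The number of all genes that the fits on these 8 libraries called is not given here, so the counts of 0 have no share beside them. No block was fitted where scramble enters.

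Leaving out 1 library gave 0 to 1 marker genes and 0 to 7 list genes for overexpression against the mutated control, and 0 to 1 list genes for the mutated control and for overexpression, each against scramble. How many of all genes these fits called is not given here. Some log2 fold changes, none of them called, changed sign when 1 library was left out. For overexpression against the mutated control they ran from −0.022 to 0.088 for Mrc1, −0.017 to 0.552 for Folr2, −0.018 to 0.091 for Il4ra and −0.046 to 0.132 for Msr1. For the sponge they ran from −0.026 to 0.060 for Il4ra and −0.20 to 0.17 for Il10. For the mutated control against scramble they ran from −0.036 to 0.626 for Folr2, −0.10 to 0.17 for Stab1 and −0.071 to 0.032 for Il4ra. For overexpression against scramble they ran from −0.37 to 0.11 for Cd163, −0.024 to 0.054 for Il4ra and −0.12 to 0.21 for Il10. For the difference of the effects they ran from −0.597 to 0.069 for Folr2 and −0.039 to 0.068 for Il4ra. Without both libraries of the joined field, Stab1 (−0.11) and Il4ra (0.021) changed sign for the mutated control against scramble, and Folr2 (0.22) and Il4ra (−0.028) for the difference of the effects. Cd163 and Folr2 had at most 42 counts per library; whether depth or the spread between libraries sets their wide intervals was not tested. Leaving out 1 library moved Cd163 between −0.30 and −0.78 and Il10 between −0.33 and −0.67 for overexpression against the mutated control.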
